A study of Mus musculus with 9 samples.

Results

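The cell cycle and DNA replication genes described here are 47 genes whose products license and copy DNA, supply its nucleotides, drive the passage from G1 into S phase and carry the cell through G2 and mitosis. They were taken by gene symbol, and all 47 were found among the 49548 genes of the deposited tables. They were measured by 3′ mRNA sequencing of cultured synovial fibroblasts (SFs), the connective tissue cells of the joint lining, from ankle joints of 8-week-old mice on the CBA C57BL/6J background. The 9 libraries fall into 3 groups of 3, namely SFs of wild-type (WT) mice, SFs of hTNFtg mice, and hTNFtg SFs treated in culture with infliximab, an antibody against TNF, at 1 µg/mL for 48 hours. The labels give no treatment for WT and untreated hTNFtg SFs, whereas the study's methods give vehicle for 48 hours. hTNFtg mice carry a human TNF transgene and develop destructive polyarthritis, and the transcript of the transgene was not analysed here. The cells of all groups had been taken into culture from digested joints and depleted of CD45+ cells at passage 1, so the levels are those of expanded cells and not of the joint itself. The methods call the replicates biological, without saying whether each came from its own mouse, and p-values measure the spread between these samples.

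Cells commit to division when cyclin D with CDK4 or CDK6, and then cyclin E with CDK2, release E2F factors from the retinoblastoma protein. E2F factors then turn on the genes of DNA replication, among them those of the MCM helicase, and the genes of G2 and mitosis follow later through FOXM1 and the B-MYB complex. Since most of these transcripts are present mainly in dividing cells, their level in a culture is widely read as a measure of how many cells are cycling, and in bulk libraries fewer cycling cells and less RNA per cycling cell cannot be told apart. Joint lining tissue thickens in chronic arthritis, which makes the proliferation of SFs of interest in this model.

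The values are counts that the authors normalized by library and rounded to whole numbers, called normalized counts below. In 3′ sequencing, reads gather at the end of the transcript and do not grow in number with its length. The value of 1 read in each library was estimated from the gaps between its rounded values, which gave about 3829160 to 9015119 reads on genes in 8 libraries and 613343 in hTNFtg replicate 1. In that library 1 read was worth 6.23 normalized counts and 3 reads stood at 18.7, against 1.60 to 3.31 in the others. Spearman's rho between replicates was 0.931 to 0.964 in WT, 0.781 to 0.914 in hTNFtg and 0.948 to 0.967 with infliximab. All 10 fibroblast markers were above 0 in every library, with summed normalized counts of 36285 to 52372, and endothelial markers summed to at most 6. The summed level of 12 macrophage and leukocyte markers was 178 to 649 in WT, 3058 to 6283 in hTNFtg and 1988 to 4074 with infliximab, with the T cell gene Cd3e and the B cell gene Cd79a at 0 in all 9 libraries. Of the 10 of these markers that could be tested, 7 were raised in hTNFtg versus WT by the study's rule, as were 3.35% of all genes tested. The 6 chondrocyte markers summed to 4470 to 7434 in WT, 374 to 944 in hTNFtg and 627 to 1993 with infliximab. Infliximab replicate 3 held 954 normalized counts of 8 hepatocyte markers, against 19 to 67 in the other libraries. The part of these other cell types in the cell cycle results was not tested.

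The cell cycle genes were detected in all groups, at levels that depth could resolve for most of them outside hTNFtg replicate 1. Of the 47, 46 were above 0 in all 9 libraries and 46 had a mean of at least 10 normalized counts. Their means over the 9 libraries ran from 5.67 for Bub1, a spindle checkpoint kinase, to 679 for Birc5, the survivin subunit of the chromosomal passenger complex, and 16 genes had a mean over 100. In hTNFtg replicate 1 the median gene rested on 9 reads, 25 of the 47 genes on 10 reads or fewer and 7 on 3 or fewer. The median SD was 27.4% of the mean in WT, 32.5% in hTNFtg and 23.4% with infliximab.

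The summed level of the 47 genes overlapped between the 3 groups. WT replicates 1 to 3 held 5346, 6024 and 6530 normalized counts, hTNFtg replicates 5314, 5558 and 4748, and infliximab-treated replicates 5895, 6674 and 5168. The group means were 5967 ± 594 (SD, n = 3), 5207 ± 416 (SD, n = 3) and 5912 ± 753 (SD, n = 3), and the 47 genes took 0.0987% to 0.162% of each library. In hTNFtg replicate 1 the sum rests on 853 reads, for a 95% Poisson interval of 4962 to 5681 that covers counting error only.

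The genes of the early and late phases of the cycle were also summed apart. The 20 genes of replication and of G1/S stood at 2312, 2246 and 2372 in WT, at 2573, 2311 and 2274 in hTNFtg and at 2526, 2653 and 2441 with infliximab. Each infliximab library exceeded each WT library, and the hTNFtg values overlapped with both. The 27 genes of G2/M and mitosis stood at 3034, 3778 and 4158 in WT, at 2741, 3247 and 2474 in hTNFtg and at 3369, 4021 and 2727 with infliximab. In hTNFtg, 2 of the 3 libraries lay below every WT library, but the groups overlapped. The ratio of the mitotic to the replicative sum was 1.31, 1.68 and 1.75 in WT, 1.07, 1.41 and 1.09 in hTNFtg, and 1.33, 1.52 and 1.12 with infliximab. Within each of the 3 same-numbered pairs of hTNFtg libraries, the sum over the 47 genes and the sum over the G2/M and mitosis genes were higher with infliximab. The sum over the replication and G1/S genes was higher with infliximab in 2 pairs. These sums are given as a description with no test.

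**Figure D1:**
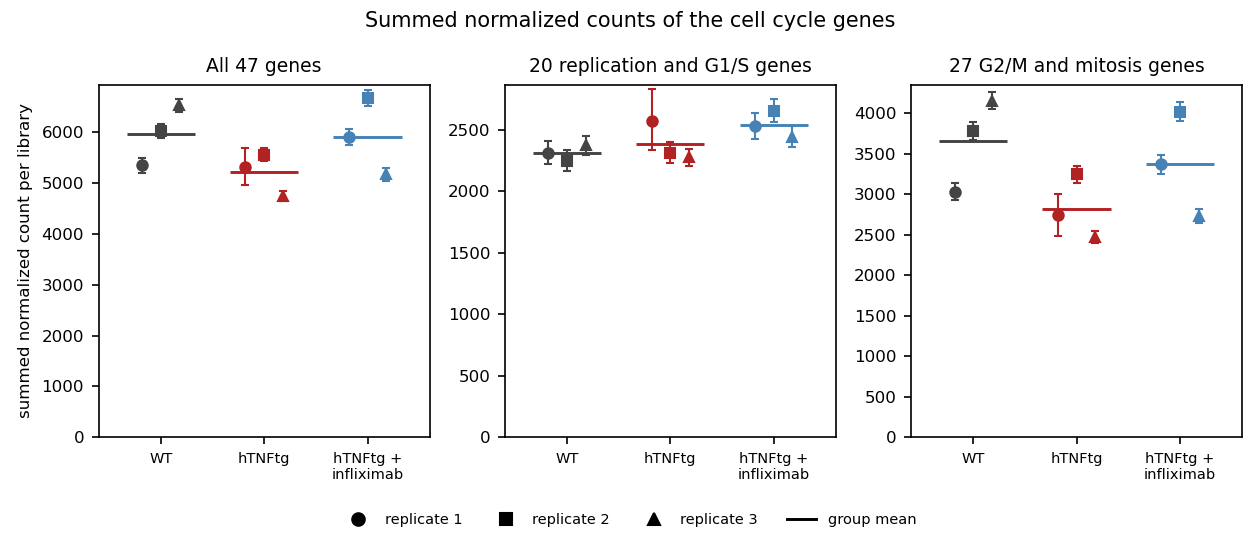
Summed normalized counts (vertical axis) of all 47 genes, of the 20 replication and G1/S genes and of the 27 G2/M and mitosis genes in each library, with the group on the horizontal axis. Symbols are replicates, error bars are 95% Poisson intervals from the approximate reads, and lines are group means. The 3 groups overlap for all 47 genes and for the mitotic genes, where 2 hTNFtg libraries sit below the lowest WT library at 3034.

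hTNFtg versus WT SFs asks how the arthritogenic state changed these genes. Plk1, the mitotic kinase that drives spindle assembly and mitotic exit, fell, and Pcna, the sliding clamp of DNA polymerase, rose under the rule of the study, which asks for an unadjusted P below 0.05 together with a change of at least 2-fold (1 on the log2 scale). These were 2 of the 47 genes, or 1 in each direction, where the same rule called 6.39% of the 28522 genes tested, 3.35% raised and 3.04% lowered, and 8.98% of those with a mean of at least 10 normalized counts, as 46 of the 47 have. With limma and Benjamini-Hochberg adjustment over all genes tested, 0 of the 47 had an adjusted p under 0.05, while 4 had an unadjusted P under 0.05, against 0.48% and 7.72% of all genes. In simulated data limma found 3.5% of genes changed 4-fold after this adjustment, so a gene that did not pass is not shown to be unchanged. With edgeR on approximate reads 1 gene, Plk1, passed after adjustment, where edgeR passed 917 of 28522 genes. Of the 47 genes, 16 were higher and 31 lower in hTNFtg, with a median log2 fold change of -0.12 against -0.0034 over all genes tested and -0.07 over genes with a mean of at least 10. Of all genes tested, 46.2% were higher. Without WT replicate 3 the count was 26 higher and 21 lower, and without WT replicate 1 it was 11 and 36. The 95% interval of the fold change lay within 1 log2 unit of 0 for 10 of the 47 genes and for 2897 of the 28522 tested. All 2897 were among the 13634 genes with a mean of at least 10.

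Infliximab-treated versus untreated hTNFtg SFs asks what blocking TNF changed. Plk1 rose, and so did Gins2, a subunit of the GINS complex that joins the MCM helicase at firing origins. These were 2 of the 47 genes by the study's rule, both raised, where the rule called 2.43% of 28540 genes, 1.49% raised and 0.936% lowered, and 2.76% of genes with a mean of at least 10. After Benjamini-Hochberg adjustment limma called 0 of the 47 genes and 0 of all genes. Before it limma called 4 of the 47 and 3.59% of all genes. With edgeR 1 of the 47, Plk1, was called after adjustment, as were 165 of 28540 genes. After infliximab 29 of the 47 genes stood higher and 18 lower, the median change being 0.16 log2 units (0 over all genes tested and 0.03 over those with a mean of at least 10). Of all genes tested, 49.8% stood higher, and without hTNFtg replicate 3 the 47 genes were 22 higher and 25 lower, with a median of -0.04. Intervals lay within 1 log2 unit of 0 for 14 of the 47 genes and for 3839 of all genes, all of the latter among the 13606 with a mean of at least 10. Both comparisons use the same 3 hTNFtg libraries, so a chance low value in those libraries lowers a gene in the first and raises it in the second.

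Infliximab-treated hTNFtg versus WT SFs, which does not use those libraries, sets the treated cells beside the WT level. By the study's rule 0 of the 47 genes differed, where the rule called 6.81% of 28243 genes (3.86% raised and 2.95% lowered) and 7.67% of genes with a mean of at least 10. limma called 0 genes after Benjamini-Hochberg adjustment and 2 before it, against 0.74% and 11.9% of all genes. edgeR called 0 after adjustment, against 1321 of 28243 genes. Of the 47 genes, 26 were higher and 21 lower, with a median of 0.07 log2 units (0 over all genes tested, of which 47.9% were higher). The count was 19 higher and 28 lower without WT replicate 1, and 21 and 26 without infliximab replicate 2. For 25 of the 47 genes and 6832 of all genes the interval lay within 1 log2 unit of 0, and all 6832 were among the 13470 with a mean of at least 10.

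**Figure D2:**
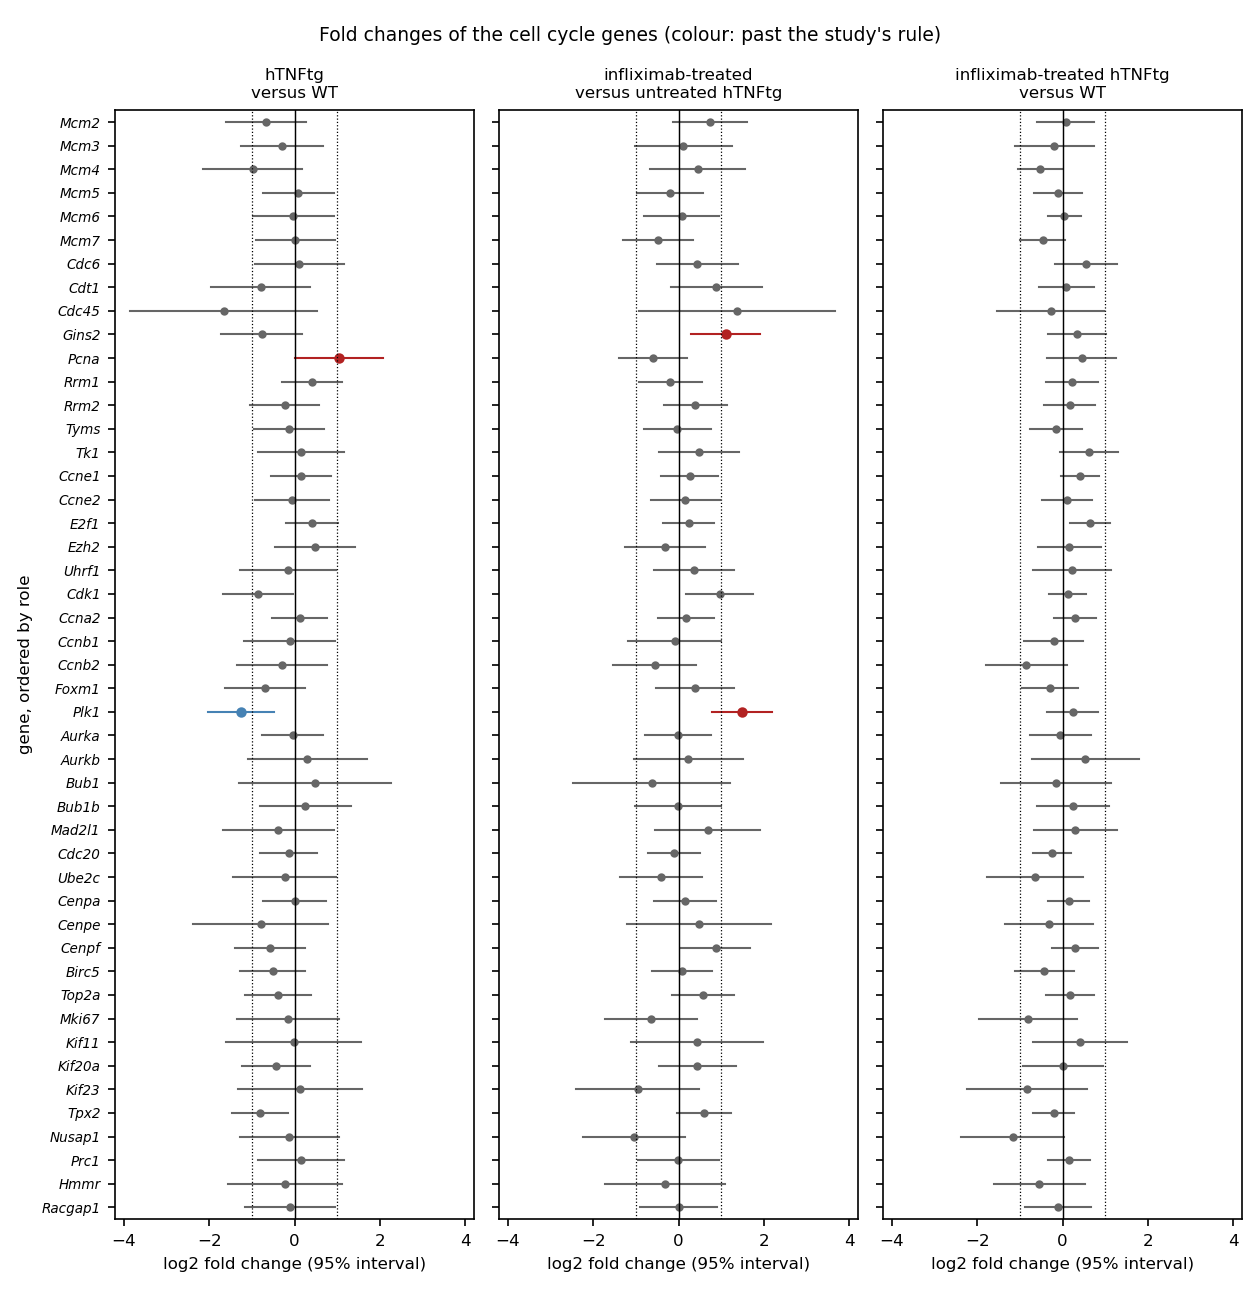
Log2 fold change (horizontal axis) of each of the 47 genes (vertical axis, ordered by role) in the 3 comparisons. Points are limma estimates, bars their 95% intervals, dotted lines mark 1 log2 unit, and red or blue marks genes raised or lowered by the study's rule. Coloured are Pcna and Plk1 in hTNFtg versus WT and Gins2 and Plk1 with infliximab.

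Plk1 had the smallest P value of the 47 genes in both comparisons of hTNFtg SFs (ENSMUSG00000030867, mm10 chromosome 7, 122159439 to 122169873). It stood at 407, 403 and 227 normalized counts in WT, at 137, 199 and 100 in hTNFtg and at 366, 513 and 324 with infliximab. The hTNFtg libraries were the 3 lowest of the 9 and overlapped with neither other group. The log2 fold change was -1.25 ± 0.36 (SE) in hTNFtg versus WT, to 0.420 times the WT level, with a limma adjusted p of 0.222. With infliximab it was 1.49 ± 0.32 (SE), 2.80 times the untreated level, with a limma adjusted p of 0.803. Infliximab-treated SFs differed from WT by 0.24 log2 units, with an interval of -0.37 to 0.84. With edgeR the adjusted p was 0.0333 in hTNFtg versus WT, where the other settings that kept all 6 libraries gave up to 0.478. With infliximab edgeR gave 0.0085 and array quality weights 0.0467, where the others gave up to 0.903. Array quality weights ended the call in hTNFtg versus WT, where the log2 fold change was -0.95. Without hTNFtg replicate 1, where Plk1 rests on 22 reads, the log2 fold changes were -1.24 and 1.47.

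Among the G2/M cyclins and their kinase, Cdk1, the kinase that triggers entry into mitosis, followed the same order of groups (ENSMUSG00000019942, mm10 chromosome 10, 69336635 to 69352938). It stood at 204, 189 and 186 in WT, at 143, 143 and 59 in hTNFtg and at 190, 255 and 188 with infliximab. All hTNFtg libraries were below the lowest of both other groups, and the hTNFtg spread came from replicate 3. The log2 fold change was -0.85 (limma adjusted p = 0.618) in hTNFtg and 0.96 (limma adjusted p = 0.803) with infliximab, in both cases under the fold of the study's rule. Without hTNFtg replicate 3 these were -0.43 and 0.54. The unadjusted P was under 0.05 in both comparisons. It was over 0.05 in 4 of the 6 fits that left out 1 library in each, those without hTNFtg replicate 3 or any 1 library of the other group. In hTNFtg versus WT it was also over 0.05 with genes of a mean of at least 10, array quality weights or the replicate block.

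The cyclins themselves did not pass the test. Ccna2, the S and G2 phase cyclin A2, stood at 267, 223 and 271 in WT, at 318, 318 and 204 in hTNFtg and at 392, 319 and 238 with infliximab. The 3 groups overlapped, with log2 fold changes of 0.12 and 0.18. Ccnb2, a mitotic cyclin, stood at 30, 76 and 83 in WT, at 62, 55 and 30 in hTNFtg and at 23, 45 and 30 with infliximab, with log2 fold changes of -0.29 and -0.56. WT replicate 1 was as low as the lowest hTNFtg library. Ccnb1 (19 to 50 over the 9 libraries) and Foxm1 (25 to 76), the factor that turns on G2 genes, overlapped in both comparisons of hTNFtg SFs.

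Among the other mitotic kinases and checkpoint genes, Cdc20, the activator that lets the anaphase-promoting complex release sister chromatids, overlapped between groups. It stood at 477, 585 and 709 in WT, at 424, 616 and 569 in hTNFtg and at 420, 524 and 535 with infliximab. The interval of its log2 fold change was -0.80 to 0.52 in hTNFtg and -0.72 to 0.50 with infliximab, which leaves out a 2-fold change. Aurka, the kinase of the spindle poles, stood at 92, 113 and 145 in WT, at 100, 140 and 98 in hTNFtg and at 94, 180 and 80 with infliximab, with intervals of -0.75 to 0.66 and -0.78 to 0.77. Of the 8 genes of this role Plk1 alone had an unadjusted P under 0.05 in either comparison of hTNFtg SFs. Aurkb, Bub1, Bub1b and Mad2l1 had at most 39 normalized counts in any library, and Ube2c, the ubiquitin-conjugating enzyme of the same complex, ranged from 41 to 210 without separating the groups.

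Tpx2, which activates Aurora A on spindle microtubules, was the one spindle gene of 8 with an unadjusted P under 0.05 in hTNFtg versus WT (ENSMUSG00000027469, mm10 chromosome 2, 152847964 to 152895321). It stood at 151, 215 and 215 in WT, at 93, 126 and 110 in hTNFtg and at 158, 191 and 148 with infliximab. The hTNFtg libraries were again the 3 lowest of the 9. Without WT replicate 2 or 3 that P was over 0.05. The log2 fold change was -0.81 (limma adjusted p = 0.473) in hTNFtg and 0.59 (limma adjusted p = 0.803) with infliximab. With infliximab its unadjusted P was over 0.05, but under it in 3 of the 8 other settings. Among these was the pairing of same-numbered libraries (limma adjusted p = 0.693). Kif20a, a kinesin of cytokinesis, stood at 244, 213 and 122 in WT, at 156, 174 and 95 in hTNFtg and at 241, 293 and 91 with infliximab. Replicate 3 was the lowest in each group and the groups overlapped. Prc1, which bundles midzone microtubules, stood at 67, 88 and 79 in WT, at 162, 96 and 41 in hTNFtg and at 75, 97 and 87 with infliximab, and its hTNFtg libraries spanned all other values.

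Nusap1, which stabilizes spindle microtubules, was chosen after its values were seen. It stood at 15, 52 and 47 in WT, at 31, 29 and 32 in hTNFtg and at 8, 18 and 20 with infliximab. The infliximab libraries lay below all hTNFtg libraries, while WT replicate 1 lay among the infliximab libraries. Its log2 fold change was -1.05 with infliximab (limma adjusted p = 0.803) and -1.17 against WT (limma adjusted p = 0.437), and neither passed. Against WT it was lowered by the study's rule under 5 of the 8 other settings, namely genes of a mean of at least 10, array quality weights, the replicate block, the joint fit of 9 libraries and edgeR. Kif11, Kif23, Hmmr and Racgap1, the other spindle and midzone genes, had unadjusted limma P values over 0.05 in the 3 comparisons.

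The centromere and proliferation genes did not separate hTNFtg from WT SFs. Mki67, which encodes the Ki-67 protein used to stain dividing cells, was low and stood at 18, 47 and 76 in WT, at 25, 46 and 40 in hTNFtg and at 23, 33 and 15 with infliximab. The WT libraries spanned the hTNFtg values, and 4 reads carried the value of hTNFtg replicate 1. Birc5 stood at 549, 882 and 1084 in WT, at 436, 700 and 590 in hTNFtg and at 722, 746 and 399 with infliximab, with a log2 fold change of -0.51 in hTNFtg (limma adjusted p = 0.726). Birc5 was at -0.79 to -0.30 when 1 library was left out, with an unadjusted P under 0.05 in 1 of the 6 fits. Its lowest WT library lay inside the hTNFtg range. Top2a, the topoisomerase that disentangles chromatids, stood at 110, 171 and 175 in WT, at 168, 95 and 91 in hTNFtg and at 184, 200 and 130 with infliximab, with log2 fold changes of -0.39 and 0.57. In hTNFtg, replicates 2 and 3 lay below all WT libraries and replicate 1 among them. Leaving out 1 library gave Top2a log2 fold changes of -0.67 to -0.23 in hTNFtg and 0.41 to 0.85 with infliximab. The latter had an unadjusted P under 0.05 in 1 of the 6 fits. Over the 8 other settings they reached -0.65 and 0.82, with such a P in 1 setting each.

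Cenpf, a kinetochore protein, had an unadjusted P under 0.05 with infliximab. It stood at 97, 82 and 82 in WT, at 50, 92 and 42 in hTNFtg and at 86, 142 and 98 with infliximab, a log2 fold change of 0.86 (limma adjusted p = 0.803). hTNFtg replicate 2 reached the infliximab range. The unadjusted P was over 0.05 in 5 of the 6 fits that left out 1 library, all but that without hTNFtg replicate 2, and with array quality weights, where the log2 fold change was 0.39. Cenpa, the histone variant of centromeres, ranged from 53 to 84 in all 9 libraries, and the interval of its log2 fold change was -0.74 to 0.74 in hTNFtg.

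**Figure D3:**
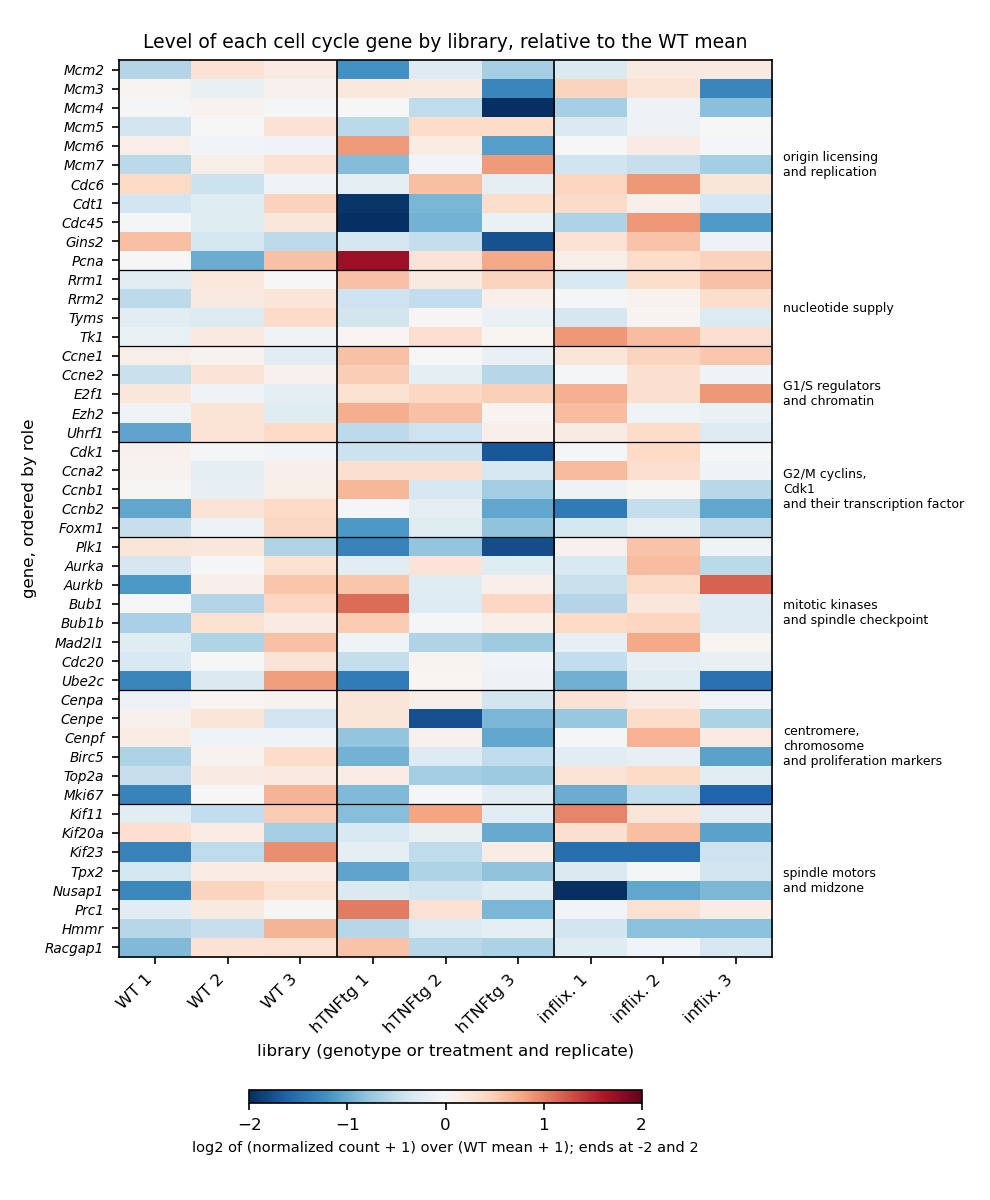
Log2 ratio of the normalized count plus 1 of each gene (vertical axis, by role) to the WT mean plus 1 in each of the 9 libraries (horizontal axis). Blue is lower and red higher than the WT mean, and colours end at -2 and 2. Plk1, Cdk1 and Tpx2 are blue in all 3 hTNFtg libraries, and E2f1 is red in the 6 libraries from hTNFtg mice.

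Among the genes of origin licensing and replication, Gins2 rose with infliximab (ENSMUSG00000031821, mm10 chromosome 8, 120578633 to 120589304). It stood at 411, 212 and 189 in WT, at 212, 195 and 80 in hTNFtg and at 330, 402 and 253 with infliximab. The infliximab libraries were above all hTNFtg libraries, while 2 of the 3 WT libraries lay at or below the highest hTNFtg library. The log2 fold change with infliximab was 1.11 ± 0.37 (SE), 2.16 times the untreated level, with a limma adjusted p of 0.803. Without hTNFtg replicate 3 it was 0.66, and without infliximab replicate 2 it was 0.95, both below the fold of the study's rule. Without infliximab replicate 1 it was 1.09 with an unadjusted P over 0.05, and with array quality weights the log2 fold change was 0.87. In hTNFtg versus WT it was -0.77 (limma adjusted p = 0.726), but -0.42 without WT replicate 1, -0.32 without hTNFtg replicate 3 and -0.42 with array quality weights.

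Pcna was the one gene of the 47 raised in hTNFtg versus WT (ENSMUSG00000027342, mm10 chromosome 2, 132249162 to 132253314). It stood at 87, 43 and 131 in WT, at 286, 104 and 148 in hTNFtg and at 94, 112 and 120 with infliximab. The groups overlapped, since hTNFtg replicate 2 lay below WT replicate 3, and the highest value was that of the shallow hTNFtg replicate 1, from 46 reads. The log2 fold change was 1.05 ± 0.47 (SE) with a limma adjusted p of 0.638. The call was lost without WT replicate 2 or hTNFtg replicate 1, where the log2 fold change was 0.61 and 0.65, and without WT replicate 1 or hTNFtg replicate 3, where it was 1.11 and 1.12 with an unadjusted P over 0.05. It was also lost with a pseudocount of 5, genes of a mean of at least 10, array quality weights (log2 fold change 0.79) and edgeR (0.90).

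Among the MCM helicase subunits, Mcm4, Mcm6 and Mcm7 differed several-fold between hTNFtg replicates. Mcm6 stood at 314, 274 and 268 in WT, at 517, 316 and 133 in hTNFtg and at 283, 321 and 277 with infliximab. Mcm7 stood at 228, 360 and 403 in WT, at 181, 318 and 599 in hTNFtg and at 250, 241 and 206 with infliximab. hTNFtg replicate 1 was the highest of its group for Mcm6 and the lowest for Mcm7, and replicate 3 the reverse, and both genes had log2 fold changes near 0 in hTNFtg (-0.03 and 0.02). Mcm4 stood at 162, 175 and 164 in WT, at 168, 117 and 30 in hTNFtg and at 105, 156 and 93 with infliximab. Its infliximab libraries lay below all WT libraries, with a log2 fold change of -0.53 (limma adjusted p = 0.393). Mcm2, Mcm3, Mcm5 and the licensing factors Cdc6 and Cdt1 overlapped between hTNFtg and WT. Cdc45, the helicase partner of GINS, had 0 reads in hTNFtg replicate 1 and 6 to 27 normalized counts elsewhere.

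The enzymes of nucleotide supply did not pass in any comparison. Rrm1, the large subunit of ribonucleotide reductase, stood at 60, 82 and 70 in WT, at 106, 80 and 97 in hTNFtg and at 57, 90 and 106 with infliximab. Rrm2, its small subunit, stood at 52, 85 and 89 in WT, at 56, 53 and 81 in hTNFtg and at 73, 79 and 96 with infliximab. Tyms, thymidylate synthase, stood at 49, 47 and 75 in WT, at 44, 58 and 52 in hTNFtg and at 45, 59 and 47 with infliximab. All 3 overlapped between groups, with intervals of -0.30 to 1.12, -1.04 to 0.58 and -0.94 to 0.69 log2 units in hTNFtg. Tk1, thymidine kinase, was 22 to 28 in WT and 31 to 45 with infliximab, without overlap but with a limma adjusted p of 0.475.

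The 5 genes of G1/S regulation and chromatin had the highest group mean of their sum with infliximab. It was 593 ± 43.8 (SD, n = 3) in WT, 725 ± 35.3 (SD, n = 3) in hTNFtg and 841 ± 91.9 (SD, n = 3) with infliximab. Treated and untreated hTNFtg libraries overlapped, with infliximab replicate 2 at 743 and hTNFtg replicate 1 at 766. E2f1 made up most of the sum. It encodes a transcription factor of the G1/S switch (ENSMUSG00000027490, mm10 chromosome 2, 154559407 to 154569892). E2f1 stood at 420, 341 and 310 in WT, at 442, 474 and 495 in hTNFtg and at 582, 444 and 654 with infliximab. All 6 libraries from hTNFtg mice were above all WT libraries, with the nearest pair at 442 and 420. The log2 fold change was 0.41 (limma adjusted p = 0.726) in hTNFtg and 0.64 (limma adjusted p = 0.231) in infliximab-treated hTNFtg versus WT. Both are under the fold of the study's rule.

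Cyclin E1, encoded by Ccne1, drives entry into S phase with CDK2. It stood at 113, 109 and 90 in WT, at 156, 104 and 94 in hTNFtg and at 123, 142 and 152 with infliximab, so that the infliximab but not the hTNFtg libraries lay above all WT libraries. Ccne2 stood at 48, 79 and 70 in WT, at 93, 57 and 44 in hTNFtg and at 64, 82 and 62 with infliximab, with overlap between groups. Ezh2 and Uhrf1, which maintain histone and DNA methylation, were at most 50 normalized counts in any library and overlapped between hTNFtg and WT.

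Counted over all 47 genes, 1 gene (E2f1) was higher in every hTNFtg than in every WT library and 3 (Cdk1, Plk1 and Tpx2) were lower, against 5.63% and 5.8% of all genes tested and 9.42% and 9.21% of genes with a mean of at least 10. With infliximab 4 genes (Gins2, Cdk1, Plk1 and Tpx2) were higher than in every untreated hTNFtg library and 1 (Nusap1) was lower, against 3.99% and 3.44% of all genes and 6.45% and 5.82% of those with a mean of at least 10. Against WT 3 genes (Tk1, Ccne1 and E2f1) were higher with infliximab and 1 (Mcm4) was lower, against 7.14% and 7.07%, or 11.3% and 12% of genes with a mean of at least 10.

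**Figure D4:**
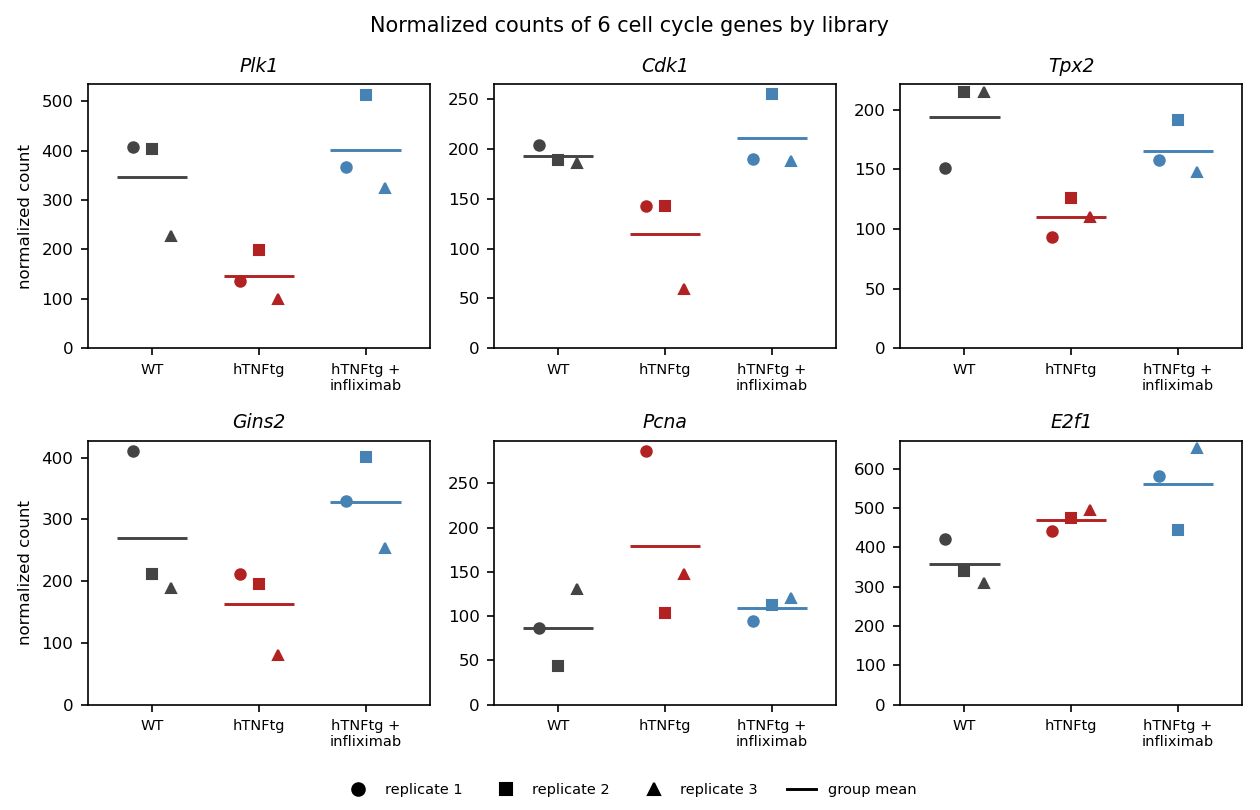
Normalized counts (vertical axis, from 0) of Plk1, Cdk1, Tpx2, Gins2, Pcna and E2f1 in the 9 libraries by group (horizontal axis). Symbols are replicates and lines are group means. For Plk1, Cdk1 and Tpx2 the 3 hTNFtg libraries are the lowest of the 9, for E2f1 the 3 WT libraries are, and for Pcna the groups overlap.

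The promoters of these genes were examined because E2F sites and CHR elements are known to mark genes of different phases of the cycle. RefSeq promoter windows (GRCm38.p6, 250 bases before to 50 bases after the start) were available for 39 of the 47 genes, in 42 windows. They were searched on both strands for 4 forms of the E2F site (TTTCGCGC, TTTGGCGC, TTTCCCGC and TTTGCCGC), for the cell cycle genes homology region, CHR (TTTGAA), and for the CCAAT box (CCAAT). A stretch was counted for each motif it matched, so that matches may overlap. Any of the E2F forms was found in 8 of 19 windows (42.1%) of the replication and G1/S genes, in 1 of 23 windows (4.35%) of the G2/M and mitosis genes and in 2.26% of all 32851 windows. The CHR was found in 10.5%, 73.9% and 17.9% of them, and the CCAAT box in 68.4%, 87% and 37.4%. RefSeq may place a start elsewhere than the deposited tables do. For 33 of the 42 windows both starts were at most 100 bases apart. In these, chosen after seeing the data, E2F forms were in 4 of 12 early windows (33.3%) and 1 of 21 late ones (4.76%), and the CHR in 16.7% and 76.2%. The windows of Pcna and E2f1 are not shown, since they lie mostly and wholly inside the gene as the tables give it. Thus the late genes carried the CHR letters and the early genes the E2F letters more often than promoters at large, which is a description of sequence and not of factor binding.

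For Plk1 and Cdk1, the mitotic kinases that were lowest in all hTNFtg libraries, the 150 bases before the RefSeq start are given 5′ to 3′ on the strand of the gene, with E2F, CHR and CCAAT letters, in either orientation, in capitals. They lie at chr7:122159285-122159434 (plus strand) and chr10:69352913-69353062 (minus strand). The RefSeq start lies 4 bases before the start of Plk1 in the deposited tables and 26 bases inside that of Cdk1.
Plk1: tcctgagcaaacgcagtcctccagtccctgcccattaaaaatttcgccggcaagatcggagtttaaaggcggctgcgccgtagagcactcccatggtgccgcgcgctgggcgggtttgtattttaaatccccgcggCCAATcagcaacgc
Cdk1: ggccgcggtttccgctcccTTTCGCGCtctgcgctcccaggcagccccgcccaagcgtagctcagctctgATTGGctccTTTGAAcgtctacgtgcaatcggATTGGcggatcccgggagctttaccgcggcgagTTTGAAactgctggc
The stretch of Cdk1 holds the E2F form TTTCGCGC beginning 131 bases before the start, CHR letters at 71 and 15 bases and inverted CCAAT boxes at 80 and 48 bases. That of Plk1 holds a CCAAT box at 14 bases, and its CHR letters begin at base 31 from the start on, beyond the stretch printed. Plk1 and Cdk1, both lower in all hTNFtg libraries, thus hold CHR and CCAAT letters. CHR letters were found in 16 and CCAAT letters in 19 of the 22 G2/M and mitosis genes with a window, most of which did not separate the groups.

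Genes of the pathway outside the 47 were read in the same way. Of 14 genes of cyclin D, CDK and RB, 3 were raised and 0 lowered in hTNFtg versus WT by the study's rule, which raised 3.35% and lowered 3.04% of all genes tested and called 8.98% of those with a mean of at least 10. In this list 9 genes stood higher and 5 lower, where 46.2% of all genes stood higher. Ccnd1, cyclin D1, which starts G1 progression, stood at 1017, 1237 and 1039 in WT, at 2965, 3538 and 3566 in hTNFtg and at 3470, 2781 and 2755 with infliximab. The 6 libraries from hTNFtg mice were all more than 2 times the highest WT library. Its log2 fold change was 1.61 (limma adjusted p = 0.0646) in hTNFtg, -0.16 (adjusted p = 0.92) with infliximab and 1.45 (adjusted p = 0.018) in infliximab-treated hTNFtg versus WT. This last adjusted p was 0.087 to 0.335 when 1 library was left out, over 0.05 whichever it was, and was also over 0.05 in the joint fit of 9 libraries and, at 0.407, with the replicate block, while the log2 fold change stayed at 1.34 to 1.54 without any 1 library.

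Cdk6, a kinase partner of cyclin D, stood at 78, 188 and 117 in WT, at 729, 509 and 628 in hTNFtg and at 308, 316 and 435 with infliximab. The groups did not overlap, with the infliximab libraries between the other 2 groups. Its log2 fold change was 2.35 (limma adjusted p = 0.0177) in hTNFtg and -0.82 with infliximab (limma adjusted p = 0.803), under the fold of the study's rule, and it stayed raised against WT by 1.53 (adjusted p = 0.0621). In hTNFtg versus WT its adjusted p was 0.0814 to 0.372 when 1 library was left out and 0.488 with the replicate block, and under 0.05 in the other 7 settings, with log2 fold changes of 2.05 to 2.67 without any 1 library. Cdk4, the other such kinase, stood at 184, 236 and 291 in WT, at 206, 212 and 324 in hTNFtg and at 178, 237 and 140 with infliximab, and overlapped in the 3 comparisons. E2f2, an E2F factor and also raised, had at most 17 normalized counts in any library.

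Of 16 genes of CDK inhibitors and p53 targets, 1 was raised and 1 lowered in hTNFtg versus WT, where the study's rule called 6.39% of all genes and 8.98% of those with a mean of at least 10. Cdkn1a, which encodes the inhibitor p21, stood at 391, 481 and 302 in WT, at 1401, 701 and 1600 in hTNFtg and at 1028, 601 and 1835 with infliximab. All 6 libraries from hTNFtg mice were above all WT libraries, with log2 fold changes of 1.59 (limma adjusted p = 0.106) in hTNFtg and 1.44 (limma adjusted p = 0.124) in infliximab-treated hTNFtg versus WT, and -0.16 between the treated and untreated cells. In hTNFtg versus WT its lowest value over the 8 other settings was 0.995, under the fold of the study's rule. The lowered gene, Cdkn1c, had at most 17 normalized counts. With infliximab 1 gene of this list was raised, where the rule raised 1.49% of all genes. This was Phlda3, a p53 target that restrains AKT. It stood at 1177, 2216 and 1395 in hTNFtg and at 3274, 2947 and 3470 with infliximab, a log2 fold change of 1.07 (limma adjusted p = 0.803) that was 0.87 without hTNFtg replicate 1 and 0.63 with array quality weights. WT libraries, at 2459, 1715 and 1171, overlapped with the untreated hTNFtg libraries and lay below all infliximab libraries. In infliximab-treated hTNFtg versus WT, 12 of the 16 genes stood higher and 4 lower, with a median of 0.41, where 47.9% of all genes stood higher. An unadjusted limma P was under 0.05 for 9 of them, against 11.9% of all genes and 18.4% of those with a mean of at least 10. Without overlap 6 were higher and 3 lower, against 7.14% and 7.07% of all genes. The study's rule raised 2 and lowered 1, against 3.86% and 2.95%. Trp53 itself was raised there by 1.24 log2 units (limma adjusted p = 0.336). That call was lost in 4 of the 6 fits that left out 1 library (WT replicate 2 or 3, infliximab replicate 1 or 2) and in the joint fit of 9 libraries.

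Of 45 further replication genes, 9 were higher and 36 lower in hTNFtg, with a median log2 fold change of -0.26, where 46.2% of all genes stood higher and the median was -0.0034, or 45% and -0.07 among genes with a mean of at least 10. By the study's rule 1 was raised and 2 were lowered, against 3.35% and 3.04% of all genes. The raised gene was Rfc2, a subunit of the loader that places PCNA on DNA. It stood at 160, 176 and 170 in WT, at 361, 550 and 889 in hTNFtg and at 430, 296 and 415 with infliximab. WT libraries differed little among themselves and lay below all others, with log2 fold changes of 1.73 (limma adjusted p = 0.0606) in hTNFtg and 1.15 (adjusted p = 0.0372) in infliximab-treated hTNFtg versus WT. The latter adjusted p was 0.109 to 0.343 when 1 library was left out, and was also over 0.05 in the joint fit of 9 libraries and, at 0.407, with the replicate block. The lowered genes were Orc6, an origin recognition subunit (log2 fold change -1.32, limma adjusted p = 0.45), and Gmnn, geminin, which blocks relicensing (-1.02, limma adjusted p = 0.622). The call of Gmnn was lost in 5 of the 6 fits that left out 1 library, all but that without hTNFtg replicate 2, and with a pseudocount of 5, the replicate block or array quality weights (-0.55). That of Orc6 was lost without WT replicate 1, WT replicate 3 or hTNFtg replicate 1, and with array quality weights (-0.71). With infliximab 2 were raised and 0 lowered, namely Brca2, a factor of homologous repair, by 1.62 (limma adjusted p = 0.803) and Pola2, a subunit of the polymerase alpha-primase, by 1.01 (limma adjusted p = 0.803), where 1.49% of all genes were raised. The call of Brca2 was lost in 5 of the 6 fits that left out 1 library, all but that without hTNFtg replicate 2, with array quality weights (0.73) and once same-numbered libraries were paired (adjusted p = 0.693). That of Pola2 was lost without hTNFtg replicate 1 or 3 or infliximab replicate 1 or 2. It was also lost with a pseudocount of 5 and with array quality weights (0.60).

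Of 54 further mitosis genes, 16 were higher and 38 lower in hTNFtg, with a median of -0.36, and 1 was lowered and 0 raised, against 3.04% and 3.35% of all genes and the medians given above. The lowered gene was Sgol2a, a shugoshin that protects centromeric cohesion, at 77, 87 and 77 in WT, at 31, 55 and 27 in hTNFtg and at 92, 104 and 100 with infliximab. Its hTNFtg libraries were the 3 lowest of the 9, as for Plk1, with log2 fold changes of -1.14 (limma adjusted p = 0.375) and 1.43 with infliximab (limma adjusted p = 0.803). The first call was lost without WT replicate 2 or hTNFtg replicate 3 (-0.94), and both with array quality weights (-0.74 and 0.97). In hTNFtg versus WT 2 of the 54 genes were higher and 9 lower without overlap. This compares with 5.63% and 5.8% of all genes, and 9.42% and 9.21% of those with a mean of at least 10. With infliximab 2 were higher and 1 lower without overlap, against 3.99% and 3.44% of all genes. Lmnb1, lamin B1, was raised with infliximab by 1.20 (limma adjusted p = 0.803), and Gtse1, a G2 and S phase protein, was raised in infliximab-treated hTNFtg versus WT by 1.08 (limma adjusted p = 0.145). The former was 0.87 without hTNFtg replicate 1 and 0.88 with array quality weights, and the latter 0.85 without WT replicate 2. With infliximab 34 of the 54 genes were higher and 20 lower, with a median of 0.30, where 49.8% of all genes and 52.7% of those with a mean of at least 10 stood higher, with medians of 0 and 0.03. In infliximab-treated hTNFtg versus WT 16 were higher and 38 lower, with a median of -0.20. There 47.9% of all genes and 48.6% of those with a mean of at least 10 stood higher. The further lists were chosen by function and, like the 47 genes, share the hTNFtg libraries between both comparisons.

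**Figure D5:**
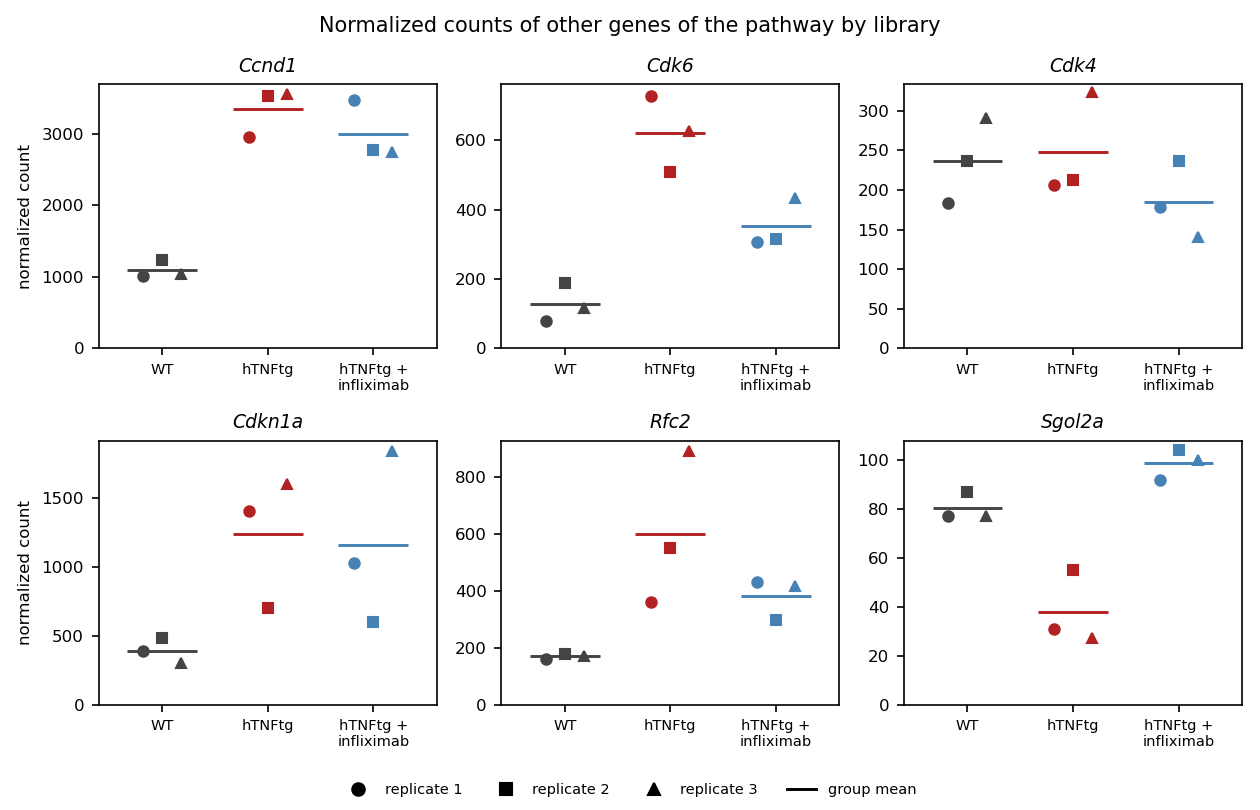
Normalized counts (vertical axis, from 0) of the regulators Ccnd1, Cdk6, Cdk4 and Cdkn1a, of Rfc2 and of Sgol2a in the 9 libraries by group (horizontal axis). Symbols are replicates and lines are group means. The WT libraries are the lowest of the 9 for Ccnd1, Cdk6, Cdkn1a and Rfc2, the hTNFtg libraries are for Sgol2a, and Cdk4 overlaps between groups.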

How the data were processed

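RNA of 9 libraries was made into QuantSeq 3′ libraries and run on an Ion Proton instrument. The authors aligned reads to mm10 with TopHat2 and the remainder with Bowtie2, counted them per gene with GenomicRanges, removed genes at 0, normalized the counts and tested them with DESeq, through metaseqR. Versions, the method of normalization and use of strand are not given in the sources used here. The values deposited by the authors are a score, whole numbers obtained by scaling each library's counts by a single factor, and in hTNFtg replicate 1 a signal from which whole reads were recovered (99.9% of values). Other per-sample columns (24 over 2 tables) and the authors' columns of fold changes and p-values were not used.

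Groups of 3 libraries were compared on log2(normalized count + 1) with limma 3.58.1 under R 4.3.3, by lmFit and eBayes with an intensity trend, using the 6 libraries compared and genes above 0 in at least 1. Adjusted p-values are Benjamini-Hochberg over all genes tested, and the study's rule is P under 0.05 with a log2 fold change of at least 1. The 47 genes and the lists were chosen with earlier results of these data known. Values are given for genes past the study's rule in any comparison and the 3 of highest mean in each role, and for further genes of the pathway past the rule with a mean of at least 10 (up to 4 per list and comparison) besides Ccnd1, Cdkn1a and Cdk4. Nusap1, Mki67, Cdk6 in all comparisons and members named beside these were added after values were seen.

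The value of 1 read was recovered in 9 of 9 libraries simulated with values like the real ones and in 13 of 16 with random values (30297 genes). Tested on simulated data for hTNFtg versus WT (27025 genes, 200 changed 4-fold), limma found 92% of the changed genes by the study's rule with 965 unchanged ones, and 3.5% after adjustment. edgeR 4.0.16 found 95% with 1027 unchanged ones, and 29.5% after adjustment. The simulation gave every gene the same dispersion. Same-numbered untreated and infliximab-treated hTNFtg libraries deviated together from their group means (r of 0.127, 0.292 and 0.363 over 8631 genes). Differently numbered ones gave r of -0.354 to 0.175, and same-numbered WT and untreated hTNFtg libraries 0.389, -0.171 and 0.434. Neither these values nor the labels settle whether the numbers pair any samples, so the main fits are unpaired and the replicate block is an alternative. Approximate reads came from dividing by the value of 1 read. Alternatives were a pseudocount of 5, genes with a mean of at least 10, rescaling by median ratios, quantile normalization, array quality weights, a block for the replicate number, a joint fit of all 9 libraries, the quasi-likelihood test of edgeR, and leaving out each library. Promoters were taken from RefSeq (GRCm38.p6) by symbol and figures drawn with matplotlib 3.10.9.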

Additional observations from a re-analysis of the deposited data

How the results depend on the processing

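Over 96 gene-by-comparison results, 1344 values were recomputed, 1272 kept their direction, 72 reversed it and 96 crossed the unadjusted P threshold. In hTNFtg versus WT the study's rule called 1 of the 47 genes rather than 2 with a pseudocount of 5, genes of a mean of at least 10 or edgeR (Plk1 each time), and 1 (Cenpe) with array quality weights, under which Plk1 stood at -0.95. There the rule called 4.74% of all genes tested with a pseudocount of 5, and 8.68% of those with a mean of at least 10. In infliximab-treated hTNFtg versus WT it called 1 (Nusap1) rather than 0 with genes of a mean of at least 10, array quality weights, the replicate block or all 9 libraries, and 3 (Kif23, Mki67 and Nusap1) with edgeR. Here it called 7.84% of genes with a mean of at least 10, and 5.4% of all genes tested in the joint fit of 9 libraries. With infliximab, array quality weights called Cenpe and Plk1, and not Gins2. Same-numbered libraries correlated at -0.194 to 0.434 over 8631 genes. Every such pair was over 0.1 between untreated and infliximab-treated hTNFtg, but not every one in the comparisons with WT. Whether the numbers pair the samples is not settled by these values. In the 3 comparisons, in the order of the report, the replicate block called 2, 2 and 1 of the 47 genes. Of all genes it called 5.82%, 2.12% and 6.01%. In the infliximab comparison it changed no call of a named gene but those of Tpx2 and Brca2 given there.

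Leaving out 1 library gave 1 to 3 genes called in hTNFtg versus WT (3 without any 1 of the hTNFtg replicates), 1 to 4 with infliximab (4 without hTNFtg replicate 2, 1 without infliximab replicate 1 or 2) and 0 to 3 in infliximab-treated hTNFtg versus WT (3 without WT replicate 1), where the rule called 5.02% to 8.91%, 1.5% to 4.99% and 6.19% to 9.11% of all genes. Array quality weights called 12.4%, 7.45% and 8.15% of all genes, and edgeR 8.6%, 4.31% and 7.42%. The medians of the 47 log2 fold changes ranged from -0.28 to 0.05, from -0.04 to 0.28 and from -0.11 to 0.14, turning sign without WT replicate 3 in the first, hTNFtg replicate 3 in the second, and WT replicate 1 or infliximab replicate 2 (-0.03) in the third. Mean sums were 5685 to 6277 in WT, 5031 to 5436 in hTNFtg and 5532 to 6285 with infliximab.

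Log2 fold changes near 0 turned sign in hTNFtg versus WT with quantile normalization (Mcm7 -0.0022, Mcm6 0.027), array quality weights (Cdc20 0.010, Aurka 0.18, Tyms 0.063, Mcm7 -0.042, Mcm6 0.090, Cdk4 -0.091) and edgeR (Mcm6 0.082). With infliximab they did so with median ratios (Aurka 0.0028, Prc1 0.0023), array quality weights (Birc5 -0.093, Mcm6 -0.035, Cdkn1a 0.29) and edgeR (Aurka 0.087, Mcm6 -0.034), and in infliximab-treated hTNFtg versus WT for Aurka with array quality weights (0.044) and edgeR (0.0098). Leaving out 1 library turned the sign, in hTNFtg versus WT, of Ccne1 (-0.065 to 0.30), Ccne2 (-0.35 to 0.18), Ccnb2 (-0.75 to 0.021), Cdc20 (-0.28 to 0.023), Aurka (-0.21 to 0.12), Tyms (-0.25 to 0.086), Mcm7 (-0.42 to 0.44), Mcm6 (-0.47 to 0.50), Prc1 (-0.30 to 0.68), Nusap1 (-0.67 to 0.19), Mki67 (-0.72 to 0.29) and Cdk4 (-0.16 to 0.21). With infliximab it did so for Birc5 (-0.10 to 0.38), Ccne2 (-0.081 to 0.45), Ccna2 (-0.037 to 0.37), Aurka (-0.35 to 0.23), Rrm1 (-0.38 to 0.059), Tyms (-0.15 to 0.062), Mcm6 (-0.46 to 0.51), Prc1 (-0.53 to 0.44) and Cdkn1a (-0.56 to 0.24). In infliximab-treated hTNFtg versus WT it did so for Plk1 (-0.042 to 0.38), Top2a (-0.038 to 0.36), Ccne2 (-0.11 to 0.24), Cdk1 (-0.029 to 0.19), Aurka (-0.40 to 0.18), Rrm2 (-0.082 to 0.30), Tyms (-0.27 to 0.057), Mcm6 (-0.024 to 0.11) and Kif20a (-0.32 to 0.52). The cause was not tested.

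Depth limits hTNFtg replicate 1, where 25 of the 47 genes rest on 10 reads or fewer. Reads are approximate, so edgeR's values are too.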
